A study of Homo sapiens with 6 samples.

Results

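The genes described are those of MHC class I antigen presentation: the heavy chains HLA-B, HLA-C, HLA-E and HLA-F, the shared light chain B2M, both subunits of the peptide transporter (TAP1 and TAP2), the loading chaperone tapasin (TAPBP) and the trimming enzyme ERAP1. Their rows were taken by gene symbol, and all 9 were found, each as 1 row, among 60662 genes of the count table. All 9 also passed the filter on low counts, so none is missing from the test. The samples were 3 XG knockout and 3 wildtype libraries of TC-71, an established human Ewing sarcoma line labelled as from bone, cultured with no treatment. XG is a membrane glycoprotein and a blood group antigen. Polyadenylated RNA was sequenced with a strand-specific kit, and it is not stated if the knockout line was 1 clone or a pool, or if replicates were separate cultures, so p-values cover only how far these libraries vary, possibly for technical reasons.

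A class I molecule is a heavy chain bound to beta-2 microglobulin and a short peptide. The peptides are cut in the cytosol by the proteasome, carried into the endoplasmic reticulum by the TAP1 and TAP2 heterodimer, trimmed there by ERAP1 and exchanged on the heavy chain with the help of tapasin. Transcription of most of these genes is raised by interferon, through interferon-stimulated response elements, and by NLRC5, the class I transactivator. Ewing sarcoma tumours are known for low surface class I.

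Total counts ranged from 22557187 to 31214099 fragments per library, and 14425 genes were tested. XG itself had 29.9, 30.0 and 28.8 CPM (counts scaled to library size) in XG knockout libraries, against 45.3, 47.1 and 44.4 CPM in wildtype libraries, lower in all 3 but still transcribed. All 10 Ewing sarcoma markers examined passed the filter on low counts. Of 7 lymphocyte markers, 5 had no count in any library. The summed level of the list, most of it CD79A, was 1.40 to 1.69 CPM in knockout and 1.34 to 1.53 CPM in wildtype libraries. Of 5 fibroblast markers, 4 passed the filter, with a summed level of 68.5 to 77.4 CPM in knockout and 73.3 to 78.8 CPM in wildtype libraries. Of 7 macrophage and dendritic cell markers 1 passed, and of 4 endothelial and 3 epithelial markers none. Knockout replicates 1 and 2 were lower than the other 4 libraries for GC-rich transcripts in general. By the chi-square of counts per gene, knockout replicate 3 stood at 2.15 to 2.38 from the wildtype libraries, and at 4.70 and 4.33 from knockout replicates 1 and 2.

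TAP2 was the 1 gene of the 9 that passed the test, and it was lower in XG knockout cells. The other 8, among them B2M and HLA-E, the most abundant, did not pass. Over all genes tested, 1.36% were called at an edgeR adjusted p under 0.05, 0.915% lower and 0.444% higher. The median log2 fold change of the 9 genes was -0.13, against 0.0019 over all genes tested, and -0.063 after correction for GC content. Groups did not overlap for 3 of the 9, TAP1, TAP2 and HLA-C, each lower in knockout, against a background of 9.8% of all genes tested whose groups did not overlap with knockout lower.

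**Figure D1:**
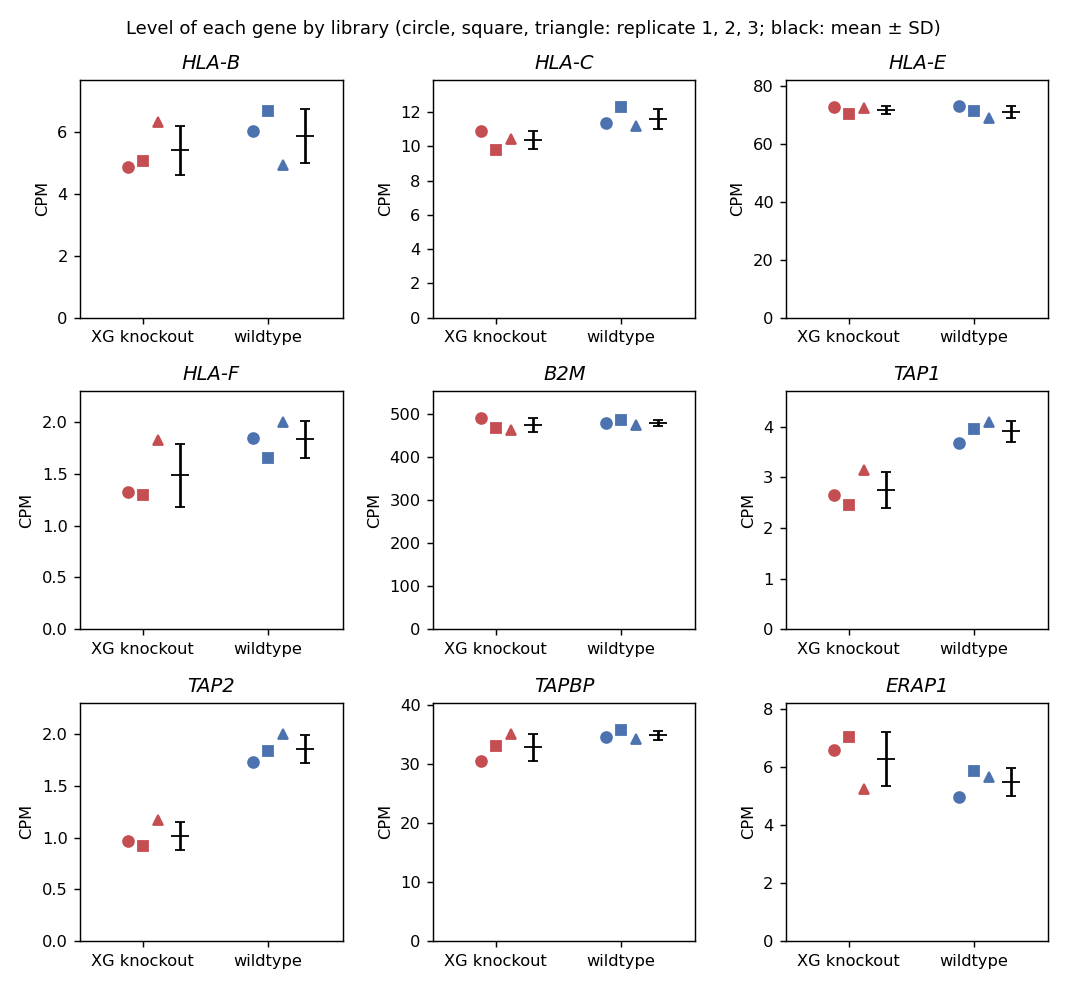
CPM of the 9 genes in each library, XG knockout left and wildtype right, with the mean and SD of 3 libraries beside the points and each axis starting at 0. TAP1 and TAP2 in the knockout libraries lie below every wildtype library, whereas the libraries of both groups overlap for HLA-E and B2M.

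The peptide transporter genes lie near each other on chromosome 6 and were both low in abundance. TAP2 (ENSG00000204267.15, chr6:32821833-32838770, minus strand, GRCh38) encodes a subunit of the transporter. It had 24, 29 and 34 counts in knockout replicates 1, 2 and 3, against 48, 48 and 45 counts in wildtype replicates 1, 2 and 3. Scaled to library size this was 0.963, 0.916 and 1.17 CPM in knockout libraries, against 1.74, 1.84 and 2.0 CPM in wildtype libraries. Every knockout library lay below every wildtype library, with knockout replicate 3 the highest of its group. TAP2 averaged 1.02 ± 0.137 CPM in knockout and 1.86 ± 0.133 CPM in wildtype cells (SD, n = 3 each), that is 54.7% of the wildtype level. This was a log2 fold change of -0.86 (SE 0.204), with an adjusted p of 0.0419 in edgeR's quasi-likelihood test. Summed over libraries, 87 counts in knockout carry an exact Poisson interval of 69.7 to 107 counts at 95%, and 141 counts in wildtype one of 119 to 166 counts, counting error only. These sums are raw counts, not scaled to library size, so they do not compare levels. In bulk RNA, fewer cells with TAP2 transcript and less transcript per cell cannot be told apart.

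The call on TAP2 stood close to the threshold and depended on single libraries. It was lost without knockout replicate 1 (edgeR adjusted p = 0.109) or 2 (0.183) and without wildtype replicate 1 (0.151), 2 (0.181) or 3 (0.191). In the same order, those fits called 67, 41, 24, 26 and 18 genes in all, so the loss was not particular to TAP2. The TAP2 log2 fold changes there were -0.83, -0.79, -0.91, -0.87 and -0.81. Without knockout replicate 3 the call on TAP2 held, at a log2 fold change of -0.98 (edgeR adjusted p = 0.00599), in a fit that called 1851 genes, against 196 with all libraries. With knockout replicate 3 as the single knockout library, in a fit where it is assumed to vary like the wildtype libraries, the TAP2 log2 fold change was -0.66 (edgeR adjusted p = 0.416). The fold change was negative in each of these fits, and knockout replicate 3 is the library that stood nearer to wildtype over all genes. The TAP2 transcript has a GC content of 49.1%, near the middle of all genes, and after GC correction it stood at -0.86 on the log2 scale (SE 0.215, adjusted p of 0.0216 in edgeR). The corrected fit called 335 genes. The authors' deposited table gives TAP2 a log2 fold change of -0.87 (SE 0.313, unadjusted p = 0.00549) and no adjusted p.

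TAP1 (ENSG00000168394.11, chr6:32845209-32853978, minus strand), the other subunit of the transporter and the nearest tested gene on the higher-coordinate side of TAP2 at 6438 bases, had the next largest fold change in size. Its counts were 66, 78 and 91 in knockout replicates 1, 2 and 3, against 102, 103 and 92 in wildtype replicates 1, 2 and 3. The scaled levels were 2.65, 2.46 and 3.14 CPM in knockout libraries, against 3.69, 3.95 and 4.09 CPM in wildtype libraries. The groups did not overlap, and knockout replicate 3 was again closest to wildtype. The mean was 2.75 ± 0.349 CPM in knockout and 3.91 ± 0.204 CPM in wildtype cells (SD, n = 3 each), 70.4% of wildtype. The log2 fold change of TAP1 was -0.50 (SE 0.139, with an adjusted p of 0.0799 in edgeR) and missed the threshold. It passed without knockout replicate 3 (log2 fold change -0.61, adjusted p = 0.00834 in edgeR), where 1851 genes were called. It also passed when genes of low count were kept in the fit (edgeR adjusted p = 0.0271), where 647 genes were called. The main fit called 196 genes. After GC correction the TAP1 log2 fold change was -0.45 (edgeR adjusted p = 0.0839). Whether TAP1 and TAP2 differ in the size of their change was not tested.

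**Figure D2:**
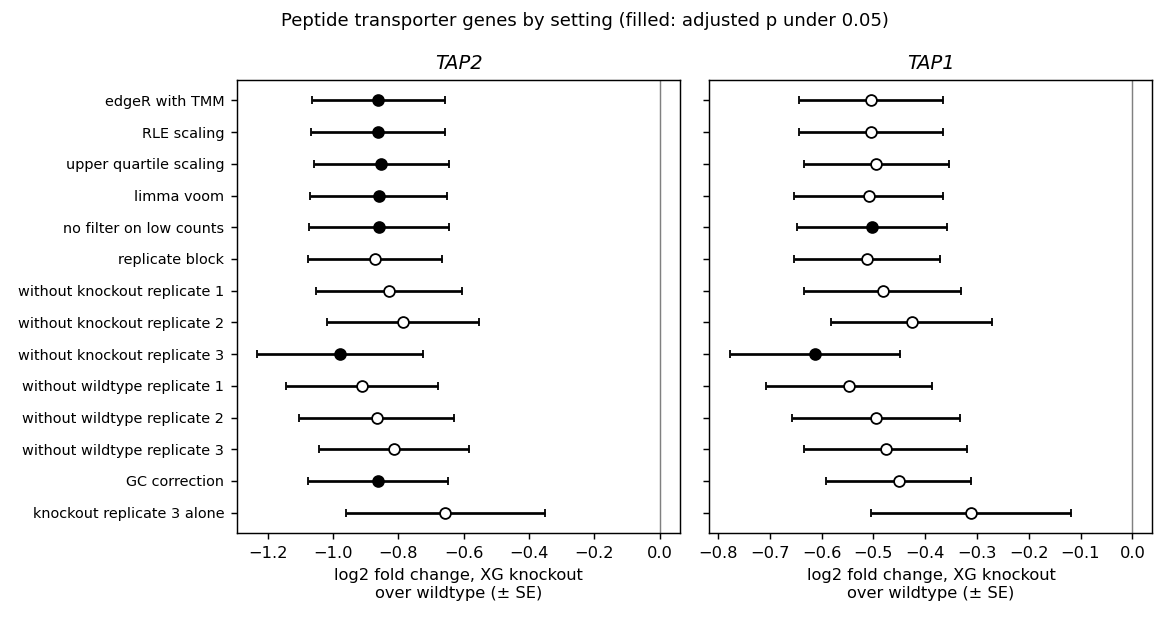
Log2 fold change of TAP2 (left) and TAP1 (right), XG knockout over wildtype, with its SE, under each setting of the fit that gave an adjusted p. Filled points have an adjusted p under 0.05. All points lie below 0, from -0.98 to -0.66 for TAP2 and from -0.61 to -0.31 for TAP1.

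The exon models bear on the transporter level. Of 6380 exonic bases of TAP2, 2054 are also exonic in another gene on the same strand (AL669918.1, with 0 counts in the 6 libraries), and fragments lying there were assigned to neither gene. Per exonic base, TAP2 stood at 0.692 TPM (length-scaled abundance) in knockout and 1.24 TPM in wildtype cells. Over its 4326 unshared bases alone, the level came to 1.02 TPM in knockout and 1.83 TPM in wildtype. TAP1 shares no exonic base with a gene of its own strand, and 577 with the antisense PSMB8-AS1, which strand-specific counting keeps apart.

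Promoter sequence upstream of both transporter genes is shown because the proteins form 1 complex and both genes had their knockout libraries below wildtype. RefSeq windows (GRCh38.p14, 250 bases before to 50 after a transcript start) were matched by symbol for 8 of the 9 genes, in 10 windows. Each line below gives the 250 bases before the start, 5′ to 3′ on the gene's strand, chr6:32838740-32838989 for TAP2 and chr6:32853705-32853954 for the upstream start of TAP1. Capitals mark matches, on either strand, to the interferon-stimulated response element core GAAANNGAAA or to the kB consensus bound by NF-kB.
TAP2: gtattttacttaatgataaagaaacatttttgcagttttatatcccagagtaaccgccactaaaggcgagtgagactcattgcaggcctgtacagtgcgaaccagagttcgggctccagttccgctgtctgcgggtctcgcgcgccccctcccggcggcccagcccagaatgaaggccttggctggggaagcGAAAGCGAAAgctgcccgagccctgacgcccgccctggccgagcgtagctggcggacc
TAP1: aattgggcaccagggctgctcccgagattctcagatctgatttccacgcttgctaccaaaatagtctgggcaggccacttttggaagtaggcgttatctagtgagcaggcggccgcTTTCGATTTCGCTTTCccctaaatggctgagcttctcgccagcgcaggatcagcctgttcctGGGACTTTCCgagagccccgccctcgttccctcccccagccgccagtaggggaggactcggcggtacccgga

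The TAP2 window held 1 match to GAAANNGAAA, which began 58 bases before the start, and no kB match. The TAP1 window held 2 overlapping matches to GAAANNGAAA, the farther beginning 134 bases before the start, and a kB match at 72 bases, with a further kB match after the start. A match to GAAANNGAAA was found in 6 of the 10 windows, 1 each of TAP1, TAP2, TAPBP, ERAP1, B2M and HLA-F, against 3.57% of 35116 promoter windows of the same length. In ERAP1 it lay just after the start, and the lower-coordinate TAP1 window and the second ERAP1 window held none of the motifs searched. The kB consensus was found in 6 of the 10 windows and in 5.91% of all windows. The shorter letters TGACG, the core of a cyclic AMP response element, were in 4 of the 10 and in 24.6% of all windows, and CCAAT, the core of the Y box, in 6 of the 10 and in 34.6% of all windows. Both strands were searched for each motif, and the motifs, and the TAP1 window with matches out of its 2, were chosen after the sequences were read. These are letter matches in a window and not measured sites.

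**Figure D3:**
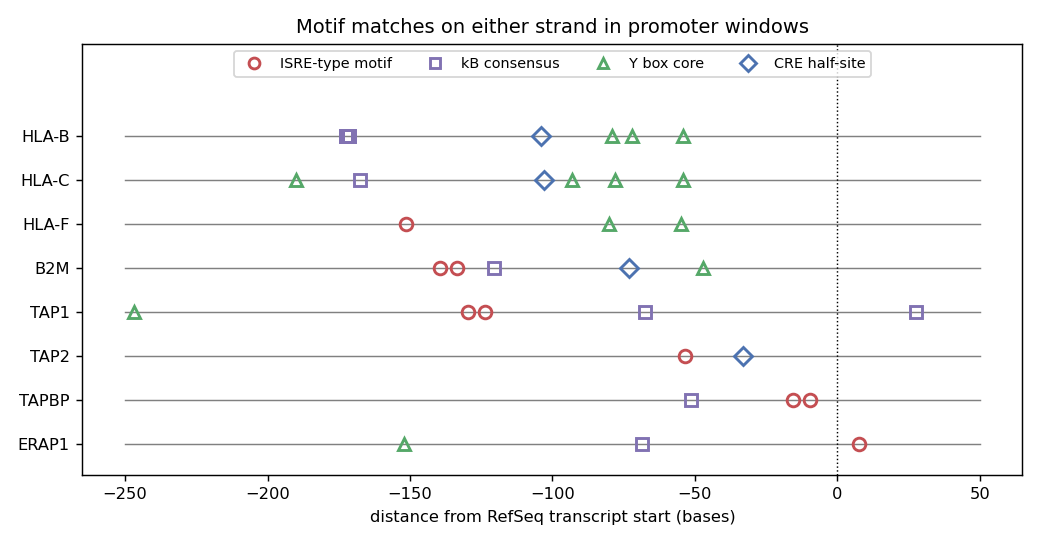
Matches to 4 motifs in promoter windows of 8 genes by distance from the RefSeq transcript start in bases, upstream to the left, leaving out windows with no match. The ISRE-type motif is GAAANNGAAA, the Y box core CCAAT and the CRE half-site TGACG; 6 of the 8 genes carry an ISRE-type match, HLA-B and HLA-C none.

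Tapasin, which bridges the transporter to the empty heavy chain and edits its peptide, did not pass the test. TAPBP (ENSG00000231925.11, chr6:33299694-33314387, minus strand) was at 30.5, 33.02 and 35.1 CPM in knockout libraries, against 34.6, 35.8 and 34.3 CPM in wildtype libraries. Knockout replicates 1 and 2 lay below wildtype and replicate 3 within its range. The log2 fold change of TAPBP was -0.084 (SE 0.055, with an adjusted p of 0.475 in edgeR), and -0.029 after GC correction. The TAPBP promoter carries 2 overlapping GAAANNGAAA matches close to the start and a kB match before them, shown in capitals for chr6:33314079-33314138.
TAPBP: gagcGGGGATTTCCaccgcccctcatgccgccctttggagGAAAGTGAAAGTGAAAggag

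ERAP1, the aminopeptidase that trims peptide precursors to length, was 1 of 2 genes of the set with a positive fold change. ERAP1 (ENSG00000164307.13, chr5:96760810-96808100, minus strand) was at 6.58, 7.05 and 5.24 CPM in knockout libraries, against 4.95, 5.87 and 5.65 CPM in wildtype libraries. Knockout replicates 1 and 2 lay above wildtype, and replicate 3 lay within its range. The log2 fold change of ERAP1 was 0.20 (SE 0.121, with an adjusted p of 0.433 in edgeR), and from 0.099 without knockout replicate 2 to 0.32 without knockout replicate 3. After GC correction ERAP1 stood at 0.16. Its exons share 299 bases with exons of CAST on the opposite strand, and strand-specific counting keeps these apart.

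The light chain and HLA-E were the most abundant of the 9 genes and neither passed the test. B2M (ENSG00000166710.20, chr15:44711487-44718877, plus strand) was at 493, 468 and 463 CPM in knockout libraries, against 479, 487 and 475 CPM in wildtype libraries. The groups overlapped, and the 95% interval of the B2M log2 fold change of -0.017 ran from -0.072 to 0.038. After GC correction B2M stood at -0.052 (adjusted p of 0.267 in edgeR). HLA-E (ENSG00000204592.9, chr6:30489509-30494194, plus strand), a heavy chain of little variation that presents leader peptides of other class I chains to natural killer cell receptors, was at 72.8, 70.3 and 72.5 CPM in knockout libraries, against 73.2, 71.4 and 69.1 CPM in wildtype libraries. Its log2 fold change was 0.011, with a 95% interval of -0.064 to 0.087, and 0.044 after GC correction, and the groups overlapped. The B2M promoter (chr15:44711358-44711417) holds 2 overlapping GAAANNGAAA matches followed by a kB match.
B2M: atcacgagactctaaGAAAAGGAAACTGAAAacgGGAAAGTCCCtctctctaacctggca

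HLA-B and HLA-C, classical heavy chains which present peptides to cytotoxic T cells, had much lower counted levels than HLA-E. HLA-C (ENSG00000204525.16, chr6:31268749-31272130, minus strand) was at 10.9, 9.80 and 10.5 CPM in knockout libraries, against 11.4, 12.3 and 11.2 CPM in wildtype libraries. The groups did not overlap, but the gap was small, and the HLA-C log2 fold change of -0.17 (SE 0.0789, with an adjusted p of 0.296 in edgeR) did not pass. HLA-C is the most GC-rich of the set at 62.7%, where the trend fitted to all genes was -0.12, -0.081 and 0.066 (log2) in knockout replicates 1, 2 and 3. With that trend removed the HLA-C log2 fold change was -0.073 (edgeR adjusted p = 0.743). HLA-B (ENSG00000234745.11, chr6:31269491-31357188, minus strand) was at 4.86, 5.06 and 6.31 CPM in knockout libraries, against 6.04, 6.67 and 4.93 CPM in wildtype libraries. The HLA-B groups overlapped, with a log2 fold change of -0.13 (SE 0.128, with an adjusted p of 0.680 in edgeR), and -0.063 after GC correction. Its value, which is also the median of the 9 genes, lay between -0.25 without knockout replicate 3 and -0.028 without wildtype replicate 2.

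HLA-F (ENSG00000204642.14, chr6:29722775-29738528, plus strand), a nonclassical heavy chain that can reach the surface without peptide, was at 1.32, 1.30 and 1.83 CPM in knockout libraries, against 1.84, 1.65 and 2.0 CPM in wildtype libraries. The groups overlapped through knockout replicate 3. The log2 fold change of HLA-F was -0.30 (SE 0.199, with an adjusted p of 0.485 in edgeR), -0.24 after GC correction, and between -0.48 without knockout replicate 3 and -0.20 without knockout replicate 2.

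Heavy chain genes resemble each other, and fragments that matched several places were not counted, so their absolute levels are uncertain. Reads were aligned to the reference genome, and how the alleles of TC-71 differ from it was not examined. In the annotation used, the HLA-B gene also has an exon inside the HLA-C locus, and 35 exonic bases are shared by both on the same strand. The upstream stretches of the 2 genes, 180 to 131 bases before the start, are given together because these are the 2 genes of the 8 with no match to the letters GAAANNGAAA. Looser forms of the interferon-stimulated response element were not searched. Both hold a kB match and neither holds GAAANNGAAA in its window (HLA-B at chr6:31357310-31357359, HLA-C at chr6:31272223-31272272).
HLA-B: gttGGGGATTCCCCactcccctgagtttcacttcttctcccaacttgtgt
HLA-C: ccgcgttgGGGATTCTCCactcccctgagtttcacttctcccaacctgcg
HLA-F (chr6:29723263-29723322) holds a GAAANNGAAA match on the opposite strand and no kB match.
HLA-F: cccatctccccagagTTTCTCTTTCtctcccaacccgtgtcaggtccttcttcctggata

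**Figure D4:**
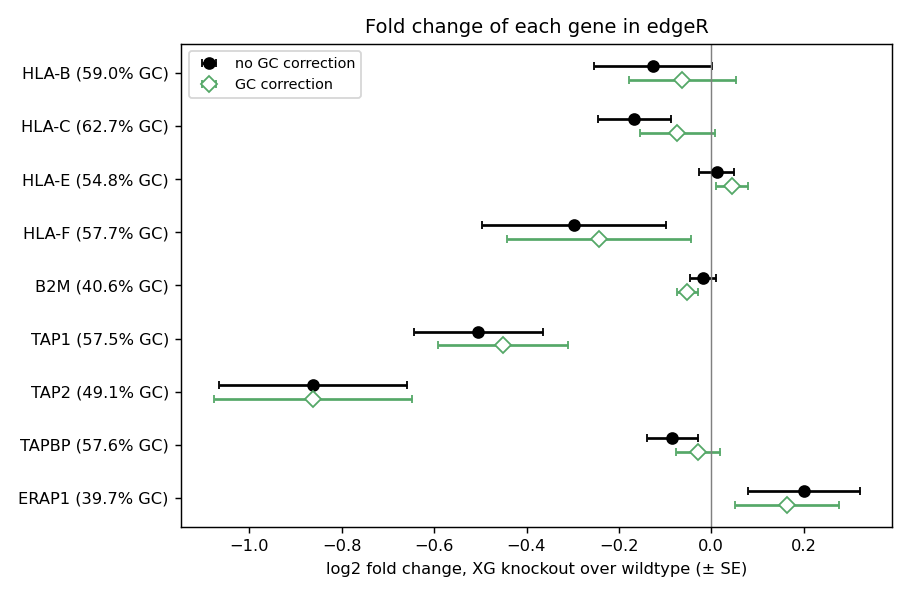
Log2 fold change of the 9 genes, XG knockout over wildtype, with its SE from edgeR, without (filled) and with (open) GC correction, the transcript GC content beside each name. TAP2 stays at -0.86 in both, while HLA-C moves from -0.17 without to -0.073 with the correction.

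Of the 7 genes with a negative fold change, knockout replicate 3 was the highest knockout library in 5 (HLA-B, HLA-F, TAP1, TAP2 and TAPBP). The share of all genes with a negative fold change in this order was not counted. With that library as the only knockout sample, the sign turned for HLA-B, HLA-F, TAPBP and ERAP1, at log2 fold changes of 0.093, 0.0032, 0.0087 and -0.062. TAP2, TAP1, HLA-C and B2M stayed negative there, at -0.66, -0.31, -0.15 and -0.052, and HLA-E stayed positive, at 0.024.

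Levels per length spanned a wide range. In knockout cells B2M had 339 ± 10.3 TPM and HLA-E 107 ± 0.654 TPM, against 337 ± 2.74 and 104 ± 2.81 TPM in wildtype cells (SD, n = 3 each). Tapasin and HLA-C followed with 28.2 and 17.9 TPM in knockout, against 29.5 and 19.8 TPM in wildtype cells. HLA-B stood at 7.69 TPM in knockout and 8.22 TPM in wildtype cells. No library of one of these 5 genes overlapped a library of another, though the absolute levels of the heavy chains are uncertain. At the low end ERAP1 had 3.44 ± 0.542 TPM and TAP1 2.48 ± 0.294 TPM in knockout, against 2.95 ± 0.251 and 3.47 ± 0.186 TPM in wildtype. ERAP1 thus lay above TAP1 in each knockout library and below it in each wildtype library, the closest knockout values being 2.84 and 2.81 TPM. HLA-F (1.49 TPM in knockout, 1.81 TPM in wildtype) and TAP2 were the lowest. Over its unshared bases alone TAP2 had 1.02 ± 0.129 TPM in knockout and 1.83 ± 0.137 TPM in wildtype, against 1.49 ± 0.291 and 1.81 ± 0.183 TPM for HLA-F (SD, n = 3 each), so the order of these genes in wildtype cells was not resolved.

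Among genes that supply peptides, constitutive proteasome subunits were abundant and inducible ones scarcely counted. The constitutive catalytic proteasome subunits PSMB5, PSMB6 and PSMB7 were at 972, 387 and 507 TPM in knockout, against 1004, 395 and 530 TPM in wildtype cells. Of their interferon-inducible counterparts, PSMB8 had 0, 1 and 4 counts in knockout libraries, against 1, 2 and 2 in wildtype libraries, and PSMB9, whose gene lies head to head with TAP1, had 1, 1 and 1 counts in knockout, against 0, 2 and 2 in wildtype. PSMB10 had 3, 8 and 11 counts in knockout, against 11, 9 and 3 in wildtype. These 3 genes were too low to test. In edgeR none of the 10 tested genes of the peptide supply list passed, 3 had an unadjusted p under 0.05, against 16.8% of all genes tested, and their median log2 fold change was -0.036. The smallest p-values were those of PSMB7, at 209 ± 5.62 CPM in knockout and 222 ± 1.67 CPM in wildtype (SD, n = 3 each; log2 fold change -0.086, edgeR adjusted p = 0.144), and of the cytosolic peptidase THOP1, at 95.5, 102 and 117 CPM in knockout, against 118, 113 and 116 CPM in wildtype (log2 fold change -0.14, edgeR adjusted p = 0.185). After GC correction THOP1, at a transcript GC content of 63.1%, stood at -0.041 (adjusted p of 0.581 in edgeR). THOP1 passed without knockout replicate 3 (edgeR adjusted p = 7.87e-06), 1 of 1851 genes called in that fit. Its knockout replicate 3 lay within the wildtype range.

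**Figure D5:**
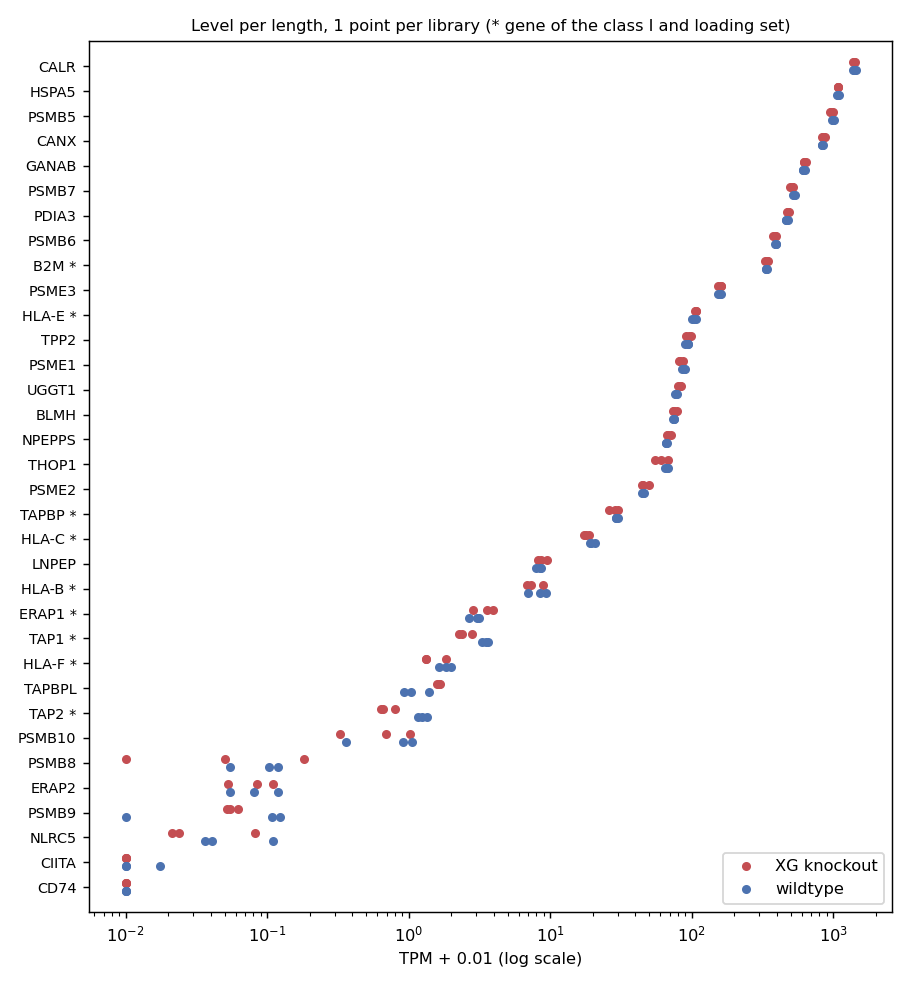
TPM plus 0.01 on a log axis for the 9 genes (marked *), the lists of peptide supply and ER loading partners, and NLRC5, CIITA and CD74, with XG knockout above wildtype in each row and 1 point per library. B2M and the general chaperones lie at the high end, TAP1 and TAP2 between 0.63 and 3.65 TPM, and PSMB8, PSMB9, ERAP2 and NLRC5 near the low end.

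The general chaperones of loading were abundant. Calreticulin (CALR) had 1405 ± 29.7 TPM in knockout and 1411 ± 34.1 TPM in wildtype cells (SD, n = 3 each), and the disulfide isomerase PDIA3 482 TPM in knockout and 469 TPM in wildtype. In edgeR none of the 8 tested ER partners passed, and 1 had an unadjusted p under 0.05, against 16.8% of all genes tested. The 1 partner was TAPBPL, a tapasin-related peptide editor, at 1.16, 1.2 and 1.21 CPM in knockout libraries, against 0.687, 0.767 and 1.02 CPM in wildtype libraries. Its groups did not overlap, with knockout higher, as for 10.7% of all genes tested. The TAPBPL log2 fold change was 0.55 (SE 0.242, with an adjusted p of 0.263 in edgeR). UGGT1, the glucosyltransferase that returns unfolded glycoproteins to calreticulin, had a log2 fold change of 0.059 (edgeR adjusted p = 0.312). ERAP2, the partner of ERAP1, had 2 to 5 counts in both groups.

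Among factors that drive class I transcription, NLRC5 had 1, 1 and 6 counts in knockout libraries, against 8, 2 and 2 in wildtype libraries, too few to test. None of the 21 tested genes described from the transcription and interferon signalling list passed in edgeR, and their median fold change was 0.0050 on the log2 scale. An unadjusted p under 0.05 was found for 1 of them, against 16.8% of all genes tested. The smallest p-values belonged to RFXAP, a subunit of the RFX complex at class I and II promoters, at 54.3 ± 0.328 CPM in knockout and 51.0 ± 1.51 CPM in wildtype (SD, n = 3 each; log2 fold change 0.088), and to STAT2, which carries the type I interferon signal, at 27.6 ± 0.843 CPM in knockout and 25.5 ± 1.14 CPM in wildtype (log2 fold change 0.12).

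Among the 7 genes of a list on class I repression and turnover, none passed in edgeR. Of these, 1 had an unadjusted p under 0.05, against 16.8% of all genes tested. SUZ12, a core subunit of Polycomb repressive complex 2, was at 90.0, 88.1 and 84.6 CPM in knockout libraries, against 82.7, 78.9 and 83.4 CPM in wildtype libraries (log2 fold change 0.10, edgeR adjusted p = 0.185), and stood at 0.059 after GC correction. TMEM127, a membrane protein that acts in class I turnover, had a log2 fold change of -0.081 (edgeR adjusted p = 0.346).

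Of the 10 tested class I-related genes that are described here, none passed in edgeR. An unadjusted p under 0.05 was found for 1 of them, against 16.8% of all genes tested. The fold change was positive for 8 and negative for 2, against 49.1% negative among all genes tested. Their median log2 fold change was 0.060, and 0.10 after GC correction. After that correction FCGRT, the neonatal Fc receptor, passed (0.12, adjusted p of 0.00538 in edgeR, against 0.025 and 0.761 without it), and it is named after its values were seen. The corrected fit called 335 genes, 150 of them higher, against 196 and 64 without the correction. The FCGRT transcript is GC-rich, at 62.6%. FCGRT was at 298, 288 and 318 CPM in knockout libraries, against 291, 302 and 295 CPM in wildtype libraries, which overlapped. ULBP1, a stress-induced ligand of the activating receptor NKG2D, was at 22.7, 24.8 and 23.4 CPM in knockout libraries, against 20.6, 21.8 and 21.3 CPM in wildtype libraries. The groups did not overlap, with knockout higher, as for 10.7% of all genes tested. The ULBP1 log2 fold change was 0.16 (SE 0.0589), with an adjusted p of 0.177 in edgeR. MICB, another such ligand, was at 27.0 ± 1.49 CPM in knockout and 24.7 ± 2.32 CPM in wildtype (SD, n = 3 each), with a log2 fold change of 0.13 and an adjusted p of 0.346 in edgeR.

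Class II genes were nearly absent. Of 12, 6 had no count in any library, among them HLA-DRA and the invariant chain CD74, where 0 counts allow up to 0.0961 to 0.133 CPM (3 counts per library). HLA-DMA, a class II peptide editor, was the 1 tested, at 1.08, 1.2 and 0.862 CPM in knockout libraries, against 1.05, 0.652 and 1.02 CPM in wildtype libraries, which overlapped (edgeR adjusted p = 0.734). Of 9 class I pseudogenes, 2 could be tested and neither passed in edgeR: HLA-H at 1.04, 0.980 and 1.07 CPM in knockout libraries, against 0.976, 1.57 and 1.78 CPM in wildtype libraries (adjusted p = 0.351), and HLA-L at 0.708 CPM in knockout and 0.648 CPM in wildtype on average.

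The pattern of TAP2 over the 6 libraries was most like those of ATF5, MRPL14 and TNS1, with Pearson's r of log2 CPM of 0.998, 0.995 and 0.993. These were picked as the highest among 14424 other genes, 152 of which exceeded 0.95, and each r rests on 6 libraries in 2 groups. ATF5, a stress-response transcription factor on chromosome 19, and TNS1, a focal adhesion protein on chromosome 2, were called lower in knockout (log2 fold changes -0.25 and -0.15), and MRPL14, a mitochondrial ribosomal protein on chromosome 6, was not (-0.087).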

How the data were processed

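The members and gene lists were chosen with earlier results of these data known. Reads were aligned with STAR 2.7.6a to GRCh38, per the submitters' processing notes. The deposited values are fragment counts per gene from featureCounts of Subread 2.0.1 over exons of GENCODE 33, reverse-stranded and paired, per the file headers, with no option for multi-mapping or multi-overlapping fragments. The authors' deposited table holds log2 fold changes with their standard errors, p-values with adjusted values, a Wald test score and mean normalized signal, attributed to DESeq2 1.38.3 by the submitters' processing notes. Its fold changes had the sign of knockout over wildtype in 100% of called genes.

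Genes were filtered with filterByExpr (minimum count 10), scaled by TMM and tested two-sided with edgeR 4.0.16 (R 4.3.3), Benjamini-Hochberg adjusted over 14425 genes at 0.05. SEs derive from the F statistic and the 95% intervals of fold changes are normal. CPM use TMM-scaled library sizes, and TPM the deposited exon length. No replicate pair agreed within sampling noise (chi-square per gene at least 1.46). GC correction, chosen after seeing the data, subtracts each library's lowess trend (span 0.5) on transcript GC content (GENCODE 29; 99.5% of tested genes). Scripts were tested on simulated data.

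Alternatives were RLE and upper quartile scaling, DESeq2 1.42.0, limma 3.58.1 voom, no or stricter filtering (100 counts in 3 libraries), a replicate block, leaving out each library and a threshold of 0.01; knockout replicate 3 alone was added after seeing the data. Named genes are the 9 members, and per list up to 4 called genes or else the 2 of smallest p; others are described as chosen later or given as levels only. Promoter sequences are RefSeq's. Gene names are those of the count table. Of the pathway lists, 2 entries are not reported here, and counts over those lists and over the region of chromosome 6 leave them out.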

Additional observations from a re-analysis of the deposited data

How the results depend on the processing

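The number of genes called was 196. It was 647 with no filter on low counts, 37 with the replicate block, 33 at an adjusted p under 0.01, 335 with GC correction (185 lower and 150 higher, against 132 lower and 64 higher without it) and 125 with knockout replicate 3 alone, and from 18 to 1851 when 1 library was left out, the highest without knockout replicate 3. The cause was not tested. Of the 9 genes described, 1 was called; 2 were called with no filter, and 0 with DESeq2, with the stricter filter, with the replicate block, at 0.01 and with knockout replicate 3 alone, and from 0 to 2 when 1 library was left out. DESeq2 gave no adjusted p for 5 of the 9, TAP2 among them, and the stricter filter left out TAP2, TAP1 and HLA-F. The replicate numbers did not pair the samples (correlations of deviations of same-numbered libraries -0.056, -0.059 and -0.064), and with the block TAP2 had a log2 fold change of -0.87 (edgeR adjusted p = 0.0941). Signs turned in 9 cases, none of them called: with knockout replicate 3 alone for HLA-B (0.093), HLA-F (0.0032), TAPBP (0.0087), ERAP1 (-0.062), THOP1 (0.017) and HLA-DMA (-0.070), and for HLA-E without wildtype replicate 3 (-0.013; up to 0.032 with wildtype replicate 1 left out), B2M without knockout replicate 3 (1.72e-05; down to -0.044 with knockout replicate 1 left out) and HLA-L without wildtype replicate 2 (-0.15; up to 0.28 with wildtype replicate 3 left out). TAP1, TAP2 and HLA-C kept a negative sign in each alternative run. TAP2 rests on 24 to 48 counts per library, which limits its precision.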

Other observations

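The stretch of chromosome 6 that holds the heavy chain, transporter and tapasin genes (chr6:29722775-33314387, GRCh38, from the first to the last of the 9 genes there, bounds set after values of the region were seen) had 89 other tested genes described here, and 69 of them had a negative fold change, against 349 of the 744 tested genes of the whole chromosome and 49.1% of all genes tested, with a median log2 fold change of -0.061, against 0.0072 for the chromosome. Of the 89, 2 were called lower in edgeR and none higher, against 0.915% and 0.444% of all genes tested. They were VARS1, the valyl-tRNA synthetase, at 349 ± 24.1 CPM in knockout and 393 ± 6.29 CPM in wildtype, and EHMT2, the histone H3 lysine 9 methyltransferase G9a, at 146 ± 7.29 CPM in knockout and 162 ± 2.65 CPM in wildtype (SD, n = 3 each), both named after their values were seen. The region is GC-rich, with a median transcript GC content of 54.99%, against 48.0% over all genes tested, and GC-rich genes had lower values in knockout replicates 1 and 2. After GC correction the median of the region was -0.027, against -0.0056 for the chromosome, and neither VARS1 (edgeR adjusted p = 0.0743) nor EHMT2 (0.141) was called. The cause of the lower values in the region was not tested. Between TAP2 and the nearest tested gene on its lower-coordinate side, TSBP1-AS1, lay 414069 bases.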
